A study of Mus musculus with 9 samples.

Results

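The genes described here encode 7 transcription factors that control red blood cell formation around GATA1, namely Gata1, Klf1, Tal1, Zfpm1, Nfe2, Gfi1b and Lmo2. They were picked by name from 19933 genes that had their own probe set on an Affymetrix whole-transcript array hybridised with RNA from mouse yolk sac. Each of the 7 had 1 probe set, and all 7 lay above the level set for dim genes, as did 13207 genes in all. The comparisons ask whether mRNA of these regulators differed when Rnh1, the gene of the cytosolic ribonuclease inhibitor, was lost.

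In the yolk sac the first wave of red cells, the primitive erythroid cells, arises in blood islands and fills with embryonic globin. GATA1 binds GATA motifs and switches on globin, heme and membrane genes with its cofactor FOG1, the product of Zfpm1. On many of these genes it sits in a complex with the helix-loop-helix protein TAL1, its E-protein partner, and the bridging proteins LMO2 and LDB1. KLF1 binds CACCC boxes in the same genes, NFE2 pairs with small MAF proteins, and GFI1B is a repressor that brings in a histone demethylase.

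The 9 samples were yolk sacs at embryonic day 9.5 from a mixed SV 129/C57BL/6 background. They comprised 3 wild type (WT, Rnh1+/+), 3 heterozygous (HET, Rnh1+/-) and 3 knockout (KO, Rnh1-/-) samples with 1 array each and no treatment. The labels leave out which part of Rnh1 is deleted, the embryos' sex and whether several yolk sacs were pooled, and they do not say that replicates are separate animals. The p-values therefore measure the spread between these samples, which may be partly technical, and the number of arrays limits the precision. The sex-linked genes Xist and Eif2s3y, given below, differed between arrays within each genotype. The arrays of a genotype were thus not all repeats of the same RNA. Values are log2 signals normalized by the authors, with array medians from 7.07 to 7.20. Of all probe sets 47.2% held exactly the same value on more than 1 array, as Rnh1 did on HET 1 and HET 2. Such ties enter the SDs, SEs and overlaps given below, and their cause was not tested.

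On the WT arrays Rnh1 itself stood at 10.39, 10.42 and 10.32 (log2 signal), on the HET arrays at 9.75, 9.75 and 9.77, and on the KO arrays at 6.28, 6.78 and 6.87, so that its order followed the labels on every array. Markers of the tissue were bright. The 3 embryonic globins with a probe set of their own (of 9 globin symbols) averaged 13.21 to 13.23 in WT, 13.17 to 13.21 in HET and 13.01 to 13.19 in KO, and 1 of the 3 fell in KO against WT (limma), where 15.2% of all genes fell. The 10 genes of the visceral endoderm, the outer layer of the yolk sac, averaged 12.56 to 12.66, 12.54 to 12.69 and 12.25 to 12.43.

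The sequence upstream of 5 of the 7 genes was at hand from RefSeq (build GRCm38.p6). Those of Gata1, of Klf1, which had the largest difference between genotypes, and of Gfi1b, which holds both kinds of motif, are shown because they hold or lack motifs that factors of this set read. Each is the 250 bases before the annotated start on the gene's strand, 5′ to 3′. Capitals mark GATA motifs (AGATAA or AGATAG, and the same with T first, that is TGATAA or TGATAG) and KLF motifs (CCNCNCCC), each read on both strands, where KLF matches may overlap one another.
Gata1 (chrX:7967911-7968160, minus strand): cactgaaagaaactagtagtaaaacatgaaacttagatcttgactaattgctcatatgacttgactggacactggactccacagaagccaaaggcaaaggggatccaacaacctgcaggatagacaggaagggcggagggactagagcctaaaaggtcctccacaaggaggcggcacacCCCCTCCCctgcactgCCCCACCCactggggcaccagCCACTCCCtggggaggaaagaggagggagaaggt
Klf1 (chr8:84901732-84901981, plus strand): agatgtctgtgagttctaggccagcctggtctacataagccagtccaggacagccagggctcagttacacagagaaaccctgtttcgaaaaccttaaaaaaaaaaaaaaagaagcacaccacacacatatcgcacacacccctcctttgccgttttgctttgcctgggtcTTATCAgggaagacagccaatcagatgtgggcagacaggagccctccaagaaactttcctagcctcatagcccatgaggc
Gfi1b (chr2:28621983-28622232, minus strand): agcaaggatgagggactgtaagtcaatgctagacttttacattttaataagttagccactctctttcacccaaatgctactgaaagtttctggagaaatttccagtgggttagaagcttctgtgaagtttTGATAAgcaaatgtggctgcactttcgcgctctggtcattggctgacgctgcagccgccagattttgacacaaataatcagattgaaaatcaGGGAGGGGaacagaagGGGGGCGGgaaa
The Gata1 window held 3 KLF motifs and 0 GATA motifs. The Klf1 window held 1 GATA motif, starting 80 bases before the start, and 0 KLF motifs. Gfi1b had 1 GATA motif at 120 bases and 2 KLF motifs at 28 and 12 bases. Of the windows not shown, that of Zfpm1 held 4 KLF motifs, and Tal1, with 2 annotated starts, had 1 GATA motif at the one and 4 KLF motifs at the other. Among all 32851 RefSeq upstream windows of this length, 26.5% held a GATA motif and 45.9% a KLF motif, so these matches are common and describe letters only.

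KO against WT asked what changed with both Rnh1 copies missing. None of the 7 factors passed the test (0 of 7 by limma at an adjusted p under 0.05), against 23.5% of all 13207 genes tested. At an unadjusted p under 0.05 the count was 1 of 7, Klf1, against 38.0% of all genes. All 7 differences were below 0, with a median of -0.13 (log2), where 50.8% of all genes lay below 0 and their median was -0.0046. These signs are not independent, because the factors went up and down together across arrays. After genotype means were subtracted, the median correlation of the 21 factor pairs was 0.89. The KO arrays overlapped the WT arrays for each of the 7, whereas 40.5% of all genes had no overlap, 24.7% with KO lower and 15.8% with KO higher.

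**Figure D1:**
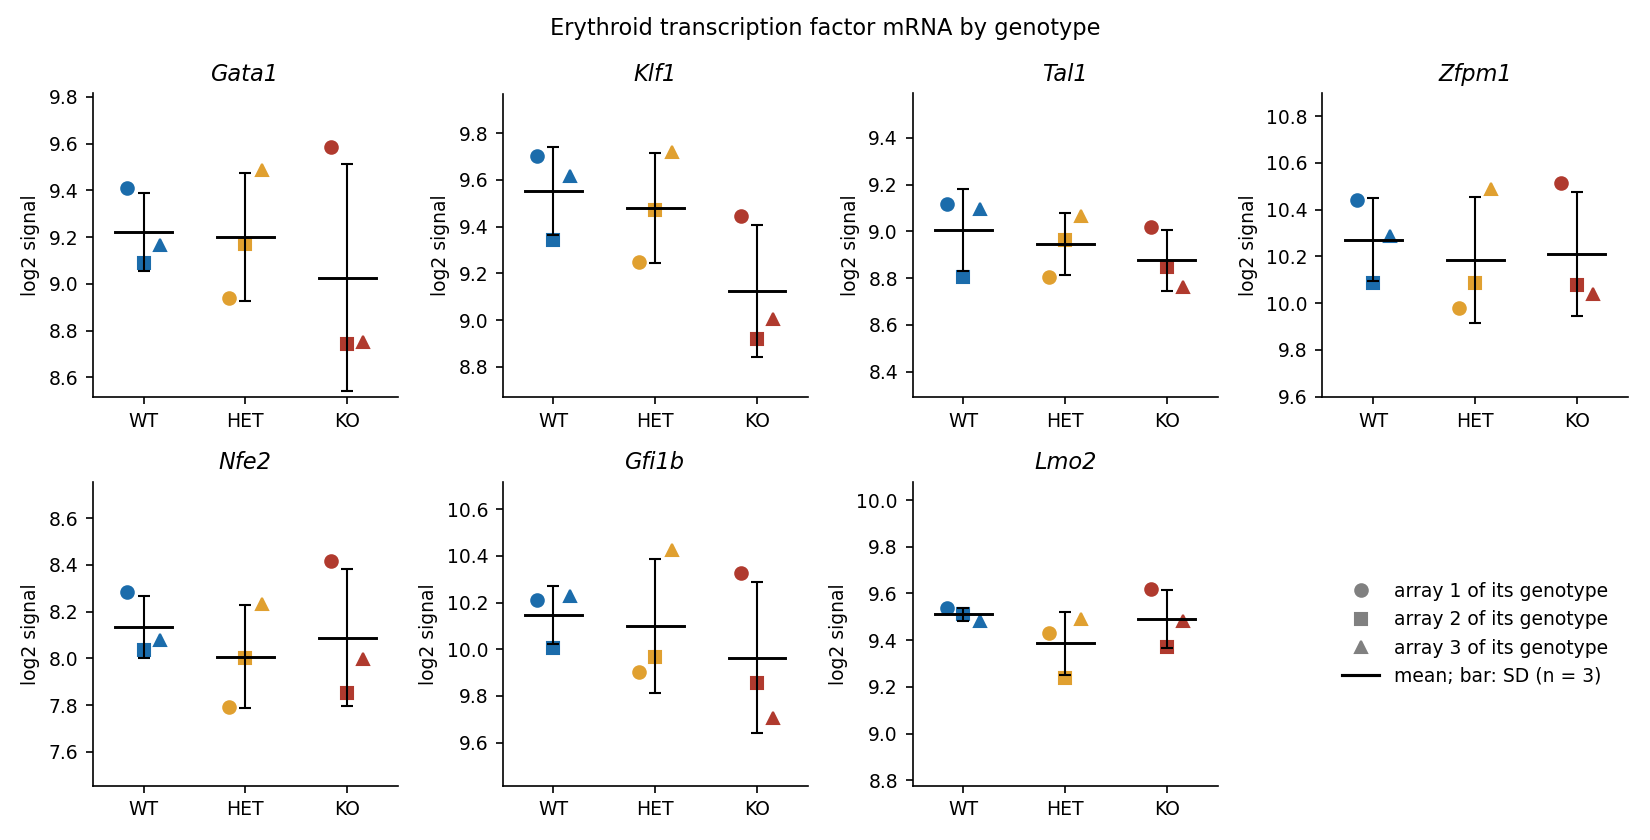
Log2 signal of each factor on the 9 arrays, by genotype; points are arrays, with a marker shape for the array number within its genotype, and bars are mean ± SD (n = 3). Every panel spans the same range of log2 units, and for Gata1, Zfpm1, Nfe2, Gfi1b and Lmo2 the array KO 1 lies above every WT array and the other KO arrays.

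Gata1 (Entrez 14460, probe set 10603417), the central regulator of red cell and platelet precursor genes, stood at 9.41, 9.09 and 9.17 on the WT arrays. It was 8.94, 9.17 and 9.49 in HET and 9.59, 8.74 and 8.75 in KO. The KO arrays thus held both the highest value of all 9, in KO 1, and the lowest, in KO 2 and KO 3. The KO mean of 9.03 ± 0.49 lay below the WT mean of 9.22 ± 0.17 (SD, n = 3 each) by 0.19, which amounts to 87.4% of the WT signal with a 95% interval from 61.2% to 125% (limma adjusted p = 0.552; two-sided exact permutation p = 0.6, where 0.1 is the smallest that 3 against 3 arrays allow). Without KO 1 the difference was -0.48 (limma adjusted p = 0.0509), just short of passing. Over all alternatives the limma adjusted p ran from 0.0136, with array weights that did not converge, to 0.904.

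Gata1 lies on the X chromosome, and 2 sex-linked markers differed between arrays. Xist, made from the inactive X, was above 10 on WT 2, WT 3, HET 2 and each KO array, at 10.56 to 11.67, and at 5.15 to 5.76 on the other 3. The Y-linked Eif2s3y was 4.34 on WT 3 and 4.41 on KO 3, and 7.27 to 8.81 elsewhere. Both genes were thus high on WT 2, HET 2, KO 1 and KO 2. With the Eif2s3y value as a covariate the Gata1 difference was -0.15 (limma adjusted p = 0.669). This covariate mainly sets WT 3 and KO 3 apart from the other arrays. Xist was high on each KO array but low on WT 1, HET 1 and HET 3. Sex and genotype are thus partly confounded, and this fit cannot tell them apart for Gata1.

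Zfpm1 (Entrez 22761, probe set 10576090), which encodes the GATA1 cofactor FOG1, read 10.44, 10.09 and 10.29 in WT. On the HET arrays it was 9.98, 10.09 and 10.49, and on the KO arrays 10.52, 10.08 and 10.04. Here too KO 1 was the highest array, while KO 2 and KO 3 lay just under the lowest WT array. The KO mean was 95.9% of WT, with an interval from 73.9% to 124% (log2 -0.06 ± 0.17 SE, limma adjusted p = 0.81), and the sign turned with quantile normalization (0.014).

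Klf1 (Entrez 16596, probe set 10573457), needed for adult-type globin and many membrane genes, showed the largest difference of the 7. The WT arrays read 9.70, 9.34 and 9.62, the HET arrays 9.25, 9.47 and 9.72, and the KO arrays 9.45, 8.92 and 9.01. KO 2 and KO 3 lay below the other 7 arrays, and KO 1 lay within the WT range. The KO mean of 9.12 ± 0.28 was 74.3% of the WT mean of 9.55 ± 0.19 (SD, n = 3), with an interval from 57.4% to 96.2%. This did not pass after adjustment (log2 -0.43 ± 0.16 SE, limma unadjusted p = 0.0285, adjusted p = 0.0899; exact permutation p = 0.2). It passed without KO 1 (-0.59, limma adjusted p = 0.0218) and without WT 2 and KO 1 together (-0.70, 0.016). Since KO 1 was the highest KO array and WT 2 the lowest WT array for Klf1, leaving them out could only widen the difference. The limma adjusted p over all alternatives ran from 0.00135, with the array weights that did not converge, to 0.249.

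Tal1 (Entrez 21349, probe set 10507131), a helix-loop-helix factor needed for the first blood cells, was 9.12, 8.81 and 9.09 in WT. It was 8.80, 8.96 and 9.07 in HET, against 9.02, 8.85 and 8.76 in KO. Of the KO arrays only KO 3 lay below the lowest WT array. The KO mean was 91.4% of WT with an interval from 77.2% to 108% (log2 -0.13 ± 0.11 SE, limma adjusted p = 0.405), and it lay between -0.23 (without WT 2) and -0.073 (without KO 3) with 1 array left out.

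Lmo2 (Entrez 16909, probe set 10474201), which bridges TAL1 and GATA1, had the smallest SE of the 7. Its WT values were 9.54, 9.51 and 9.48, those in HET 9.43, 9.24 and 9.49, and those in KO 9.62, 9.37 and 9.48. The KO mean was 98.6% of WT, with an interval from 86.4% to 113% (log2 -0.02 ± 0.08 SE, limma adjusted p = 0.876), and the sign turned with quantile normalization (0.037) and cyclic loess (0.033). Tal1 and Lmo2 are also made by endothelial cells, whose 8 marker genes, all tested, averaged 9.79 to 9.93 in WT, 9.73 to 9.89 in HET and 9.73 to 9.80 in KO; the part of these cells in the values was not tested.

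Nfe2 (Entrez 18022, probe set 10433096), the blood-specific NF-E2 subunit, was 8.28, 8.04 and 8.08 in WT. It was 7.79, 8.00 and 8.23 in HET, against 8.42, 7.85 and 8.00 in KO. KO 1 was again the highest array and HET 1 the lowest. The KO mean was 96.9% of WT with an interval from 75.8% to 124% (log2 -0.05 ± 0.16 SE, limma adjusted p = 0.851). Gfi1b (Entrez 14582, probe set 10481304), a zinc finger repressor of red cell and platelet precursors, was 10.21, 10.00 and 10.23 in WT. Its HET values were 9.90, 9.97 and 10.43, and its KO values 10.33, 9.86 and 9.71. Its highest array was HET 3 and its lowest KO 3. Its KO mean was 88.0% of WT with an interval from 66.6% to 116% (log2 -0.19 ± 0.18 SE, limma adjusted p = 0.468). Leaving out 1 array moved this difference between -0.37 (without KO 1) and -0.057 (without KO 3), and it did not pass in either case.

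Gata1, Zfpm1, Nfe2 and Gfi1b are expressed in megakaryocytes as well. Of 9 marker genes of that lineage 5 had a probe set of their own; their mean was 8.40 to 8.76 in WT, 8.41 to 8.43 in HET and 8.06 to 8.40 in KO, and all 5 lay below 0 in KO against WT. Of the 5, 3 had an unadjusted p under 0.05, and 1, Gp9, named after its value was seen, fell by limma, where 15.2% of all genes fell. The share of these cells in the factor values was not tested.

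HET against WT asked about the loss of a single copy. Again 0 of 7 factors passed by limma, and 0 of 7 at an unadjusted p under 0.05, where 0.0% of all genes passed and 2.48% had an unadjusted p under 0.05. Rnh1 itself, without overlap and at 64.9% of WT, did not pass in this comparison either (limma unadjusted p = 0.00104, adjusted p = 0.939). It passed at the same size without KO 1 (-0.62, limma adjusted p = 0.0224) and without WT 2 and KO 1 together (-0.60, 0.0329). With the array weights that did not converge Rnh1 passed as well (-0.64, limma adjusted p = 0.00597). All 7 factor differences, whose signs are not independent of each other, lay below 0, beside 50.9% of all genes. They ran from -0.13 for Nfe2 and -0.12 for Lmo2 to -0.02 for Gata1, whose HET mean of 9.20 ± 0.27 was 98.5% of WT with an interval from 69.0% to 141%. The 3 HET arrays overlapped the 3 WT arrays for each factor, while 10.2% of all genes had no overlap. HET 1 was among the 3 lowest arrays for 7 of 7 factors and HET 3 among the 3 highest for 6 of 7, so the HET group spanned most of the range of the whole series.

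KO against HET shares the KO arrays with KO against WT and the HET arrays with HET against WT. It gave 0 of 7 by limma (0 of 7 at an unadjusted p under 0.05), with 21.8% of all genes passing and 35.1% at an unadjusted p under 0.05. The groups overlapped for each factor (37.1% of all genes had no overlap), and 4 of 7 differences lay below 0, beside 53.3% of all genes. Klf1 stood at -0.36 ± 0.16 SE (limma adjusted p = 0.161), Gata1 at -0.17 and Gfi1b at -0.14. Lmo2 stood at 0.10, Nfe2 at 0.08 and Zfpm1 at 0.03. Without KO 1 Klf1 was at -0.52 and passed (limma adjusted p = 0.0379), while Nfe2 (-0.08) and Zfpm1 (-0.13) turned below 0.

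With WT and HET taken as 1 group of 6 arrays, 0 of 7 factors passed by limma and 1 of 7, Klf1, had an unadjusted p under 0.05, against 31.0% of all genes passing and 42.2% at an unadjusted p under 0.05. The groups overlapped for each factor, where 30.9% of all genes had no overlap, and 5 of 7 differences lay below 0, beside 51.2% of all genes. Klf1 in KO was 76.2% of the joint mean with an interval from 61.6% to 94.2%, next to the threshold (log2 -0.39 ± 0.14 SE, limma adjusted p = 0.0532; exact permutation p = 0.0714, where 0.0238 is the smallest possible). For Gata1 the share was 88.0% with an interval from 65.9% to 118% (limma adjusted p = 0.497; exact permutation p = 0.405). Without KO 1 both passed, Gata1 at -0.46 (limma adjusted p = 0.025) and Klf1 at -0.55 (0.0107), and Klf1 also passed without WT 2 (-0.43, 0.0491) or HET 1 (-0.45, 0.0366). KO 1 was the highest KO array for both genes, and HET 1 and WT 2 were the lowest of the joint group for Klf1. Each of these omissions could thus only widen the difference. The other 5 lay between -0.16 (Gfi1b) and 0.04 (Lmo2).

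**Figure D2:**
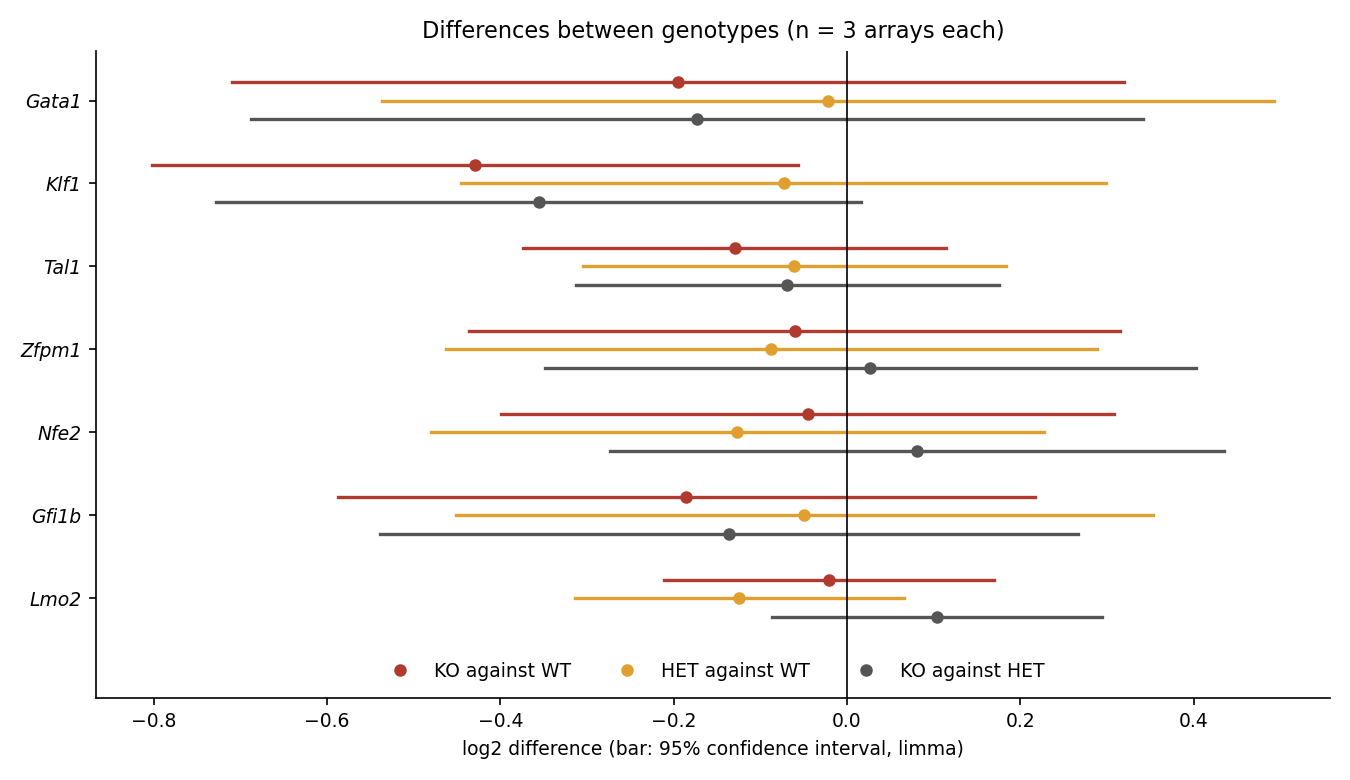
Log2 difference of each factor in the 3 comparisons between single genotypes, with 95% confidence intervals from limma (n = 3 arrays per genotype). The only interval that does not cross 0 is that of Klf1 for KO against WT, from -0.80 to -0.06, before adjustment over all genes.

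Some arrays were high or low for most of the 7 factors. KO 1 was the highest of the 9 arrays for 4 of 7 (Gata1, Zfpm1, Nfe2 and Lmo2) and among the top 3 for 5 of 7. KO 2 and KO 3 were each among the 3 lowest for 6 of 7. The mean of the 7 was 9.53, 9.27 and 9.42 for WT 1 to 3, then 9.16, 9.27 and 9.56 for HET 1 to 3, then 9.56, 9.09 and 9.11 for KO 1 to 3. On this mean KO 1 stood with the highest WT and HET arrays, and KO 2 and KO 3 stood lowest of the 9.

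**Figure D3:**
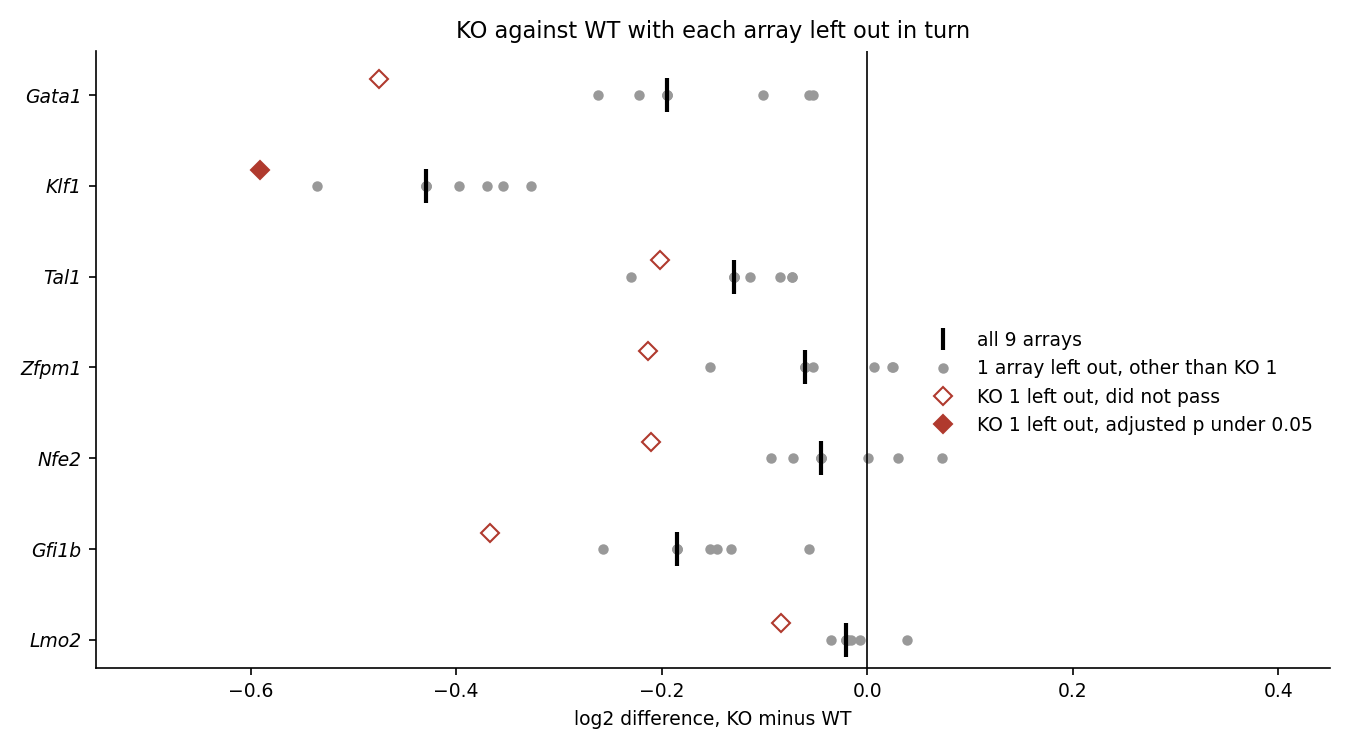
KO minus WT difference of each factor with all 9 arrays (black mark) and with each array left out in turn (points; diamonds leave out KO 1, filled where the limma adjusted p is under 0.05). Leaving out KO 1 gave the lowest value of all left-out arrays for Gata1 (-0.48), Klf1 (-0.59), Zfpm1, Nfe2, Gfi1b and Lmo2, and Tal1 moved from -0.13 to -0.20.

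Many genes that these factors are known to switch on were lower in KO than in WT. The list held 39 such genes of heme synthesis, membrane, iron uptake and red cell metabolism, of which 34 had a probe set of their own and 33 were tested. Of these 19 fell, 0 rose and 14 did not pass by limma, against 15.2% of all genes that fell and 8.27% that rose. In counts these were 2009 and 1092 genes, which became 2529 and 577 with arrays centred on their medians and 1939 and 1471 with quantile normalization. The list median was -0.55 and 32 of 33 lay below 0. In KO 21 of 33 lay below every WT array, as did 24.7% of all genes. The list, like those of partners and other blood regulators below, was chosen with earlier results of these data known. Its counts beside all genes are therefore descriptions. With WT 1 left out 9 fell, with WT 3 left out 10 and with KO 2 left out 10. In bulk tissue, fewer erythroid cells and less RNA per cell cannot be told apart.

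The blood group gene Rhd had the smallest p of the list and fell from 8.50, 8.27 and 8.25 in WT to 7.50, 6.80 and 6.95 in KO (-1.26 ± 0.18 SE, limma adjusted p = 0.00258). Add2, of the membrane skeleton, was 9.28, 8.88 and 9.22 in WT and 8.26, 8.05 and 8.00 in KO (-1.02 ± 0.15), and Epb42, of the same skeleton, 9.89, 9.58 and 9.73 against 9.06, 8.57 and 8.53 (-1.01 ± 0.18). Alas2, which starts heme synthesis in red cells, was 11.09, 10.82 and 10.99 against 10.45, 9.82 and 9.97 (-0.89 ± 0.18), and Fech, which ends it, 10.86, 10.76 and 10.79 against 10.38, 9.99 and 9.77 (-0.76 ± 0.13). These 5 were picked for the smallest p of the list, which favours groups without overlap. None of the 5 overlapped, beside 24.7% of all genes with KO below every WT array. KO 1 lay nearest to WT in each of the 5.

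**Figure D4:**
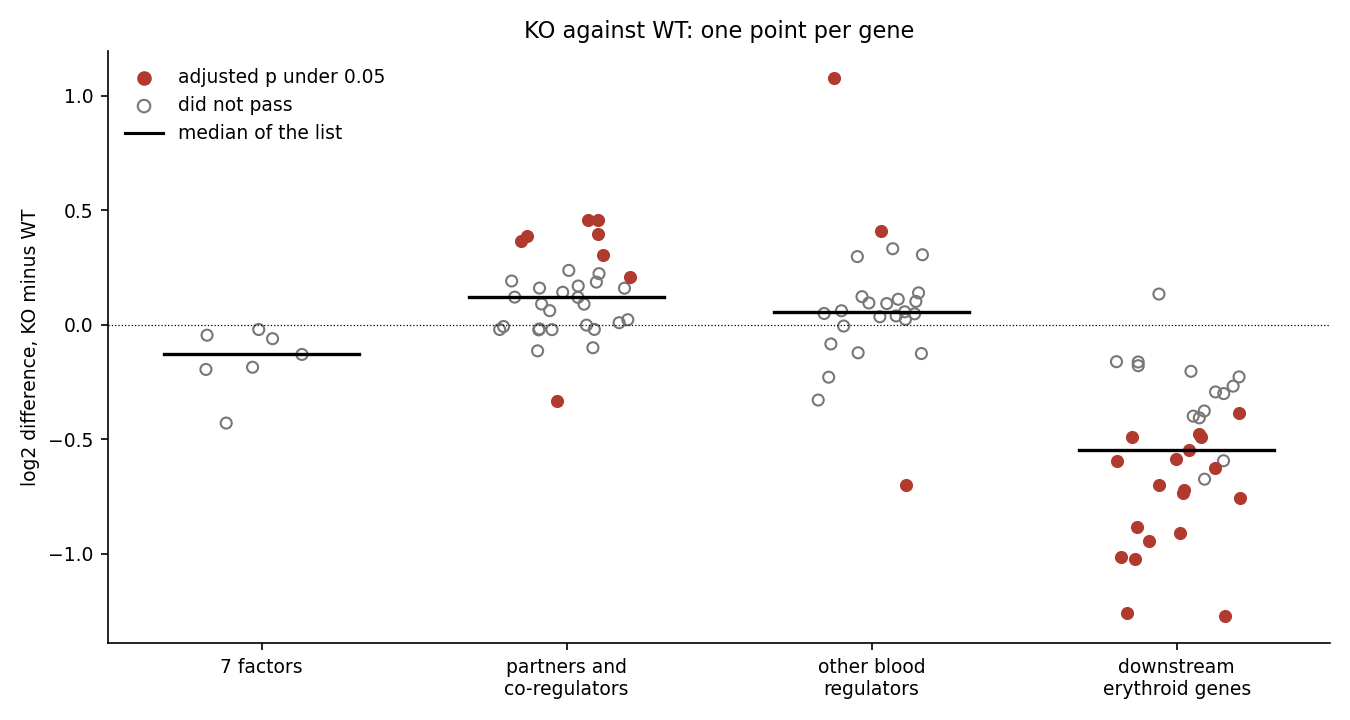
KO minus WT log2 difference of every tested gene in the 4 lists, 1 point per gene, filled where the limma adjusted p is under 0.05, with the list median as a bar. The 7 factors are open points between -0.43 and -0.02, and the downstream erythroid genes have their median at -0.55 with 19 of 33 filled.

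The factors and the downstream genes can be set side by side on the same arrays. Relative to its WT mean, the mean of the 33 downstream genes was 0.11, -0.13 and 0.02 (WT 1 to 3), then -0.20, -0.16 and 0.16 (HET), then -0.30, -0.70 and -0.69 (KO). For the 7 factors the same deviations were 0.12, -0.14 and 0.02 (WT), then -0.25, -0.14 and 0.15 (HET), then 0.16, -0.31 and -0.30 (KO). On KO 1, which held the highest Gata1 value, the downstream mean was thus lower than on any WT or HET array. KO 1 was 0.37 above the WT mean for Gata1 and 0.30 below it for the downstream genes.

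With the downstream mean of the same array subtracted, each factor was higher in KO than in WT. The shift was 0.54 for Lmo2, 0.52 for Nfe2, 0.50 for Zfpm1, 0.43 for Tal1, 0.38 for Gfi1b, 0.37 for Gata1 and 0.13 for Klf1, with SDs among the KO arrays from 0.04 (Zfpm1) to 0.26 (Gata1). For 7 of 7 factors every KO array lay above every WT array on this scale. Since the subtracted mean itself is lower in KO, the same held for 65.4% of the 13174 other genes tested, whose median shift was 0.56. The factors' median of 0.43 was thus no larger than that of genes at large, and Klf1 stayed closest to the downstream genes.

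**Figure D5:**
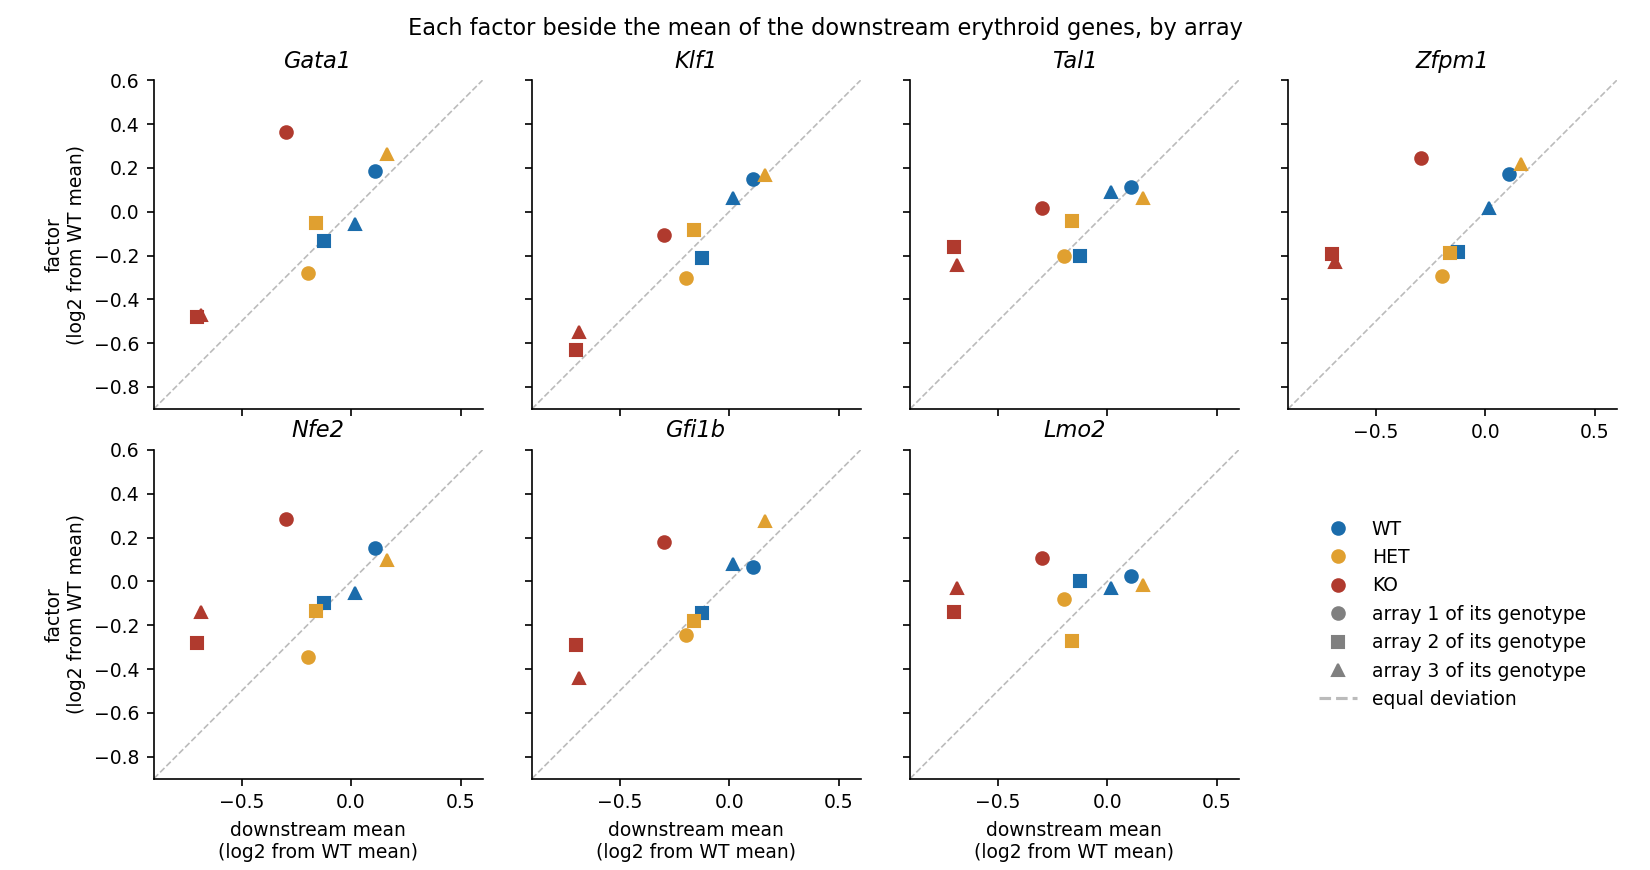
Each factor (vertical) against the mean of the 33 downstream erythroid genes (horizontal) on the 9 arrays, both as log2 deviation from the WT mean; the dashed line marks equal deviation, colours give genotype and shapes the array number. KO arrays lie above the line in every panel, and the KO arrays of Klf1 lie nearest to it, with a mean shift of 0.13.

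Among 32 partners and co-regulators of these factors, all tested, 7 rose, 1 fell and 24 did not pass by limma in KO against WT, with a median of 0.12. Of all genes 8.27% rose and 15.2% fell, and the 8 partners that passed in either direction stand beside 23.5% of all genes. In 13 of 32 every KO array lay above every WT array, beside 15.8% of all genes, and in 2 of 32 every KO array lay below, beside 24.7%. Tcf3, whose E-proteins pair with TAL1, was 9.47, 9.34 and 9.44 in WT and 10.04, 9.77 and 9.83 in KO (0.46 ± 0.08 SE, limma adjusted p = 0.00521). Ldb1, which joins TAL1 complexes at distant sites, was 10.69, 10.68 and 10.70 against 11.22, 10.97 and 10.98 (0.36 ± 0.08, 0.0112). Both genes were named for a small p, which favours groups without overlap, and the groups did not overlap for either.

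Brd3, a reader of acetylated GATA1, rose by 0.46 ± 0.07 (limma adjusted p = 0.00291), the acetyltransferase gene Crebbp by 0.39 ± 0.07, and Ssbp4, of a family that stabilises LDB1, by 0.40 ± 0.06. Ssbp2, of the same family, fell by 0.33 ± 0.11 (limma adjusted p = 0.0489), a call lost with quantile normalization (adjusted p = 0.134) and without any 1 WT or KO array or HET 2 (0.0521 to 0.147). The count of partners that passed was 5 without WT 1. Kdm1a (-0.0012) and Rcor1 (-0.10), the demethylase and its scaffold that GFI1B recruits, did not pass and were named after their values were seen.

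Of 25 other blood regulators 2 rose, 1 fell and 22 did not pass by limma, with a median of 0.06, beside 23.5% of all genes passing. Myc, a growth regulator, rose by 0.41 ± 0.08 (limma adjusted p = 0.01). Gata2, which acts in progenitors before GATA1 takes its place, read 8.51, 8.78 and 8.51 on the WT arrays, 8.40, 8.78 and 8.58 on the HET arrays and 9.01, 9.66 and 10.36 on the KO arrays, without overlap. It rose by 1.08 ± 0.28 (limma adjusted p = 0.0234), lost without WT 1 (0.0744), WT 3 (0.0611) or KO 2 (0.0611). Ikzf1, a lymphoid and erythroid zinc finger regulator, fell by 0.70 ± 0.17 (limma adjusted p = 0.0195), lost without WT 1 (0.069), WT 3 (0.0554), KO 2 (0.0658) or KO 3 (0.0603). The count that passed was 1 without WT 1 or WT 3, and 5 without KO 1.

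Within the GATA family 3 of 6 genes rose in KO against WT, beside 8.27% of all genes, and Gata1 was not among them. Beside Gata2, Gata3 rose by 1.09 ± 0.24 (limma adjusted p = 0.0124) and Gata5 by 0.63 ± 0.14 (0.0128). Gata4 (-0.07) and Gata6 (-0.28), factors of endoderm and heart, did not pass. Gata3 was 8.27, 7.81 and 8.92 on the KO arrays and at most 7.59 on any other. Gata2 and Gata3 are also trophoblast genes. Of 6 trophoblast markers 2 had a probe set of their own. Ascl2 did not pass (1.03, limma adjusted p = 0.162), and Tpbpa was too dim to be tested, at 5.90, 4.92 and 7.84 in KO. The mean of both was 5.57 to 6.36 in WT, 5.36 to 5.93 in HET and 6.19 to 8.37 in KO, with KO 3 highest, as it was for Gata2 and Gata3. On KO 1 Ascl2 was 6.48, below every WT array (6.49 to 6.89), and Tpbpa was 5.90, above every WT array (4.64 to 5.84). Gata3 and Tpbpa were higher on KO 1 than on KO 2, whereas Gata2 and Ascl2 were lower there. The part of trophoblast in the rise of Gata2 and Gata3 was not tested.

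The genes most like each factor were taken as those with the highest Pearson correlation over the 9 arrays, which share genotype as well as array, and the values are descriptions. For Gata1 they were Hipk2 (r = 0.96), Abcg4 (0.95) and Pigq (0.95). Hipk2, a kinase gene, was also nearest to Zfpm1 (0.95), and Abcg4, a transporter gene, nearest to Gfi1b (0.95). For Klf1 they were the downstream genes Ank1 (0.99), of the membrane skeleton, and Slc25a37 (0.99), a mitochondrial iron importer, and the glycine transporter gene Slc6a9 (0.98). Nfe2 was most like the globin gene Hbb-bh2 (0.95), Foxh1 (0.94) and Zfpm1 (0.93). Tal1 was most like Pfkfb4 (0.91), Prkar2b (0.89) and Ell2 (0.89), and Lmo2 most like Kcnj5 (0.94), Whamm (0.91) and the 5S ribosomal RNA gene n-R5s136 (0.91). The nearest genes of Zfpm1 and Gfi1b further included Ptp4a3 (0.93) and Gypc (0.95). Of the genes named in this paragraph Ank1 alone passed in KO against WT (-0.59, limma adjusted p = 0.0439).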

How the data were processed

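RNA from 9 yolk sac samples (100 ng each, per the labels) was amplified and hybridised to Affymetrix whole-transcript arrays. The authors deposited 1 log2 signal for each probe set. The submitters' processing notes name RMA and Affymetrix Expression Console 1.2.1.20. Array signals tend to understate differences of the brightest genes. Probe sets naming exactly 1 gene were kept, with the highest mean per gene, and genes above the 40th percentile of their array on at least 3 of 9 arrays were tested. All 9 arrays entered 1 limma 3.58.1 fit (R 4.3.3) by genotype without covariates, and a separate fit joined WT and HET. P-values were adjusted by Benjamini-Hochberg over all genes tested, with a threshold of 0.05. Single factors also had two-sided exact permutation tests (scipy 1.17.1). The fit was tested on simulated data. Gene names come from the platform annotation, and 21689 of 21780 probe sets with a single symbol matched the RefSeq table. The factors and gene lists were chosen with earlier results of these data known. Genes named by rule were Rnh1, the factors, the GATA family, Xist and Eif2s3y. From each list up to 5 genes per direction were added, those with the smallest p among the ones that passed for KO against WT, and for each factor the 3 genes most correlated with it, passing over symbols that start with Gm, LOC, Olfr, Vmn, Mir or Snor or end in Rik. Alternatives, fixed together with the design, changed the filter, probe set choice, normalization, prior, weights, arrays, the Eif2s3y covariate, the block and the threshold. Another, with the 3 genotypes kept apart in the joint comparison, was added after the data were seen.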

Additional observations from a re-analysis of the deposited data

How the results depend on the processing

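Among the factors, 0 of 7 passed for KO against WT in each alternative except array weights (5), WT 2 and KO 1 left out (1), an adjusted p under 0.1 (1) and single arrays left out (0 to 1). The weights did not converge, giving WT 1 a weight of 47.4 and KO 1 one of 0.199. Same-numbered arrays of different genotypes did not all deviate together (correlations from -0.26 to 0.42), so the numbers were not taken as pairs; with the number as a block (replicate block) the count was 0 as well, and 21 downstream genes fell against 19. For KO against HET 1 passed without WT 2 and KO 1 (0 to 1 over left-out arrays). For KO against WT and HET together 2 passed without WT 2 and KO 1, and 1 with a filter at the array median, arrays centred on their medians, a trended and robust prior, array weights or an adjusted p under 0.1 (0 to 2 over left-out arrays). For HET against WT 0 passed in every alternative run. The alternative with only the genotypes compared gives no separate value for the joint comparison. Partners passed in 5 without WT 2 and KO 1 (5 to 8 over left-out arrays), other blood regulators in 9 with array weights and 6 without WT 2 and KO 1 (1 to 5), and downstream genes in 30 with array weights (9 to 25).

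Differences near 0 changed sign. For KO against WT these were Zfpm1 (0.014, quantile) and Lmo2 (0.037, quantile; 0.033, cyclic loess), and for HET against WT Gata1 (0.016 and 0.0087). For KO against HET they were Zfpm1 (-0.13) and Nfe2 (-0.084) without WT 2 and KO 1. In the joint comparison they were Zfpm1 (0.048 quantile, 0.029 cyclic loess, 0.015 with Eif2s3y), Nfe2 (-0.029 centred, -0.17 weights, -0.15 without WT 2 and KO 1) and Lmo2 (-0.0054, -0.042 and -0.0092 likewise). With single arrays left out, KO against WT ran from -0.21 to 0.025 for Zfpm1, -0.21 to 0.073 for Nfe2 and -0.084 to 0.039 for Lmo2. HET against WT ran from -0.17 to 0.11 for Gata1, -0.19 to 0.042 for Klf1, -0.16 to 0.0098 for Tal1, -0.24 to 0.015 for Zfpm1 and -0.21 to 0.049 for Gfi1b. KO against HET ran from -0.13 to 0.18 for Zfpm1, -0.084 to 0.20 for Nfe2 and -0.32 to 0.027 for Gfi1b. The joint comparison ran from -0.17 to 0.068 for Zfpm1, -0.15 to 0.14 for Nfe2 and -0.022 to 0.10 for Lmo2. The cause of these changes was not tested.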

Other observations

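Markers of 2 further cell types were measured on the same arrays. Of 6 macrophage genes, 4 were tested and 2 fell in KO against WT by limma, where 15.2% of all genes fell and 8.27% rose. The means over all 6, the dim Adgre1 and Fcgr1 included, were 7.15 to 7.28 in WT, 7.19 to 7.30 in HET and 6.91 to 7.06 in KO. Of 6 genes of the extraembryonic mesoderm, which surrounds the blood islands, 1 rose and 1 fell, with list means of 10.46 to 10.59, 10.42 to 10.48 and 10.53 to 10.66. Of the 8 endothelial genes 1 fell and of the 10 genes of the visceral endoderm 3 fell, with 0 rising in either list. The endothelial share lies close to the 15.2% of all genes. For the visceral endoderm all 10 differences lay below 0, beside 50.8% of all genes. In 7 of these 10 every KO array lay below every WT array, beside 24.7% of all genes.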
